A study of Mus musculus with 1479 samples.

Results

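Expression of 9 channel and calcium store genes of smooth muscle was followed in the mouse urinary bladder: Cacna1c, Cacna1h, Trpc6, Itpr1, Ryr2, Casq2, Ano1, Kcnma1 and Kcnmb1. The genes were chosen by name and make up 9 of the 46517 gene rows of the count table. Their reads were compared over 1479 single cells, each a Smart-seq2 library of full-length cDNA, in 11 clusters named on the sample labels and in 5 mouse lines. All mice were adult males of 10 to 20 weeks. The line PdgfrbGFP gave 810 of the cells. It and the lines Cspg4dsRED, PdgfraGFP and Acta2GFP carry a fluorescent reporter for the gene in their name, while C57BL6 (190 cells) carries none and was sorted with antibodies against PDGFRα and PDGFRβ. The study's methods sorted cells negative for the endothelial antigen CD31, and added elastase to the digestion for Acta2GFP mice. Each line is limited to the cells that its reporter or antibody marks, so the makeup of the cells differs between lines.

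A smooth muscle cell contracts when calcium rises in its cytosol. Calcium enters through voltage-gated and receptor-operated channels of the cell membrane, and is released from the sarcoplasmic reticulum through ryanodine and inositol trisphosphate receptors. The same calcium opens a chloride channel that depolarises the cell and a large-conductance potassium channel, the BK channel, that hyperpolarises it. In the bladder and in vessel walls BK channels are known to limit contraction. Pericytes, the mural cells of capillaries, share part of this set with smooth muscle cells.

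The study took cluster 10 as mural cells, left cluster 4 (23 cells) undefined and took the other clusters as fibroblasts, with cluster 5 beneath the epithelium. Cluster 4 is counted with the fibroblast clusters here. Cluster 10 held 65 Cspg4dsRED, 45 PdgfrbGFP, 12 Acta2GFP and 3 C57BL6 cells, and the fibroblast clusters held 1354. The median depth was 130406 reads per cell in cluster 10 and 225774 in the fibroblast clusters, with 50276 to 1446059 over all cells. The edgeR test given below called all 8 smooth muscle markers (Acta2, Myh11, Tagln and others) higher in cluster 10 than in the fibroblast clusters. It also called 4 of 6 pericyte markers higher and all 6 fibroblast markers lower. Of all genes tested, 2.17% were called higher and 4.02% lower. The clusters were made from the same reads, so these calls are no independent evidence for them. The summed level of the smooth muscle markers was 7784 to 14040 reads per 500000 by line in cluster 10 and 194.4 to 288.2 in the fibroblast clusters. Of the visceral smooth muscle markers, Actg2, P2rx1, Synpo2 and Chrm3 had a read in cluster 10, Chrm3 a single read. The receptor genes Chrm2 and Tacr2 were at 0 there. The 6 visceral markers summed to a median of 767.4 over 4 lines in cluster 10 and 33.73 over 5 lines in the fibroblast clusters. By this sum, each line of cluster 10 stood above each line of the fibroblast clusters. Of these markers 3 could be tested, and 2 were called higher in cluster 10. Cardiac and skeletal muscle markers summed to at most 3.95 in cluster 10, with Myh6, Myh4 and Ckm at 0. The 6 pericyte markers summed to 716 to 3225 by line in cluster 10, beside the smooth muscle markers, and cluster 10 is therefore called by its number here.

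A level is a gene's reads scaled to 500000 endogenous reads per cell and then averaged within a line. Group values are the mean ± SD over lines, and each line counts once, so the 3 C57BL6 cells of cluster 10 weigh as much as the 65 Cspg4dsRED cells. Cluster 10 was compared with the fibroblast clusters in the 4 lines that held at least 3 cells of both. A gene was called where edgeR, run on line sums of reads, gave an adjusted p below 0.05 together with a log2 change of 2 or more in size. All 9 genes were higher in cluster 10 by their mean over lines, and 5 of the 9 were called higher, against 2.17% of the 16092 genes tested. The median log2 fold change of the 9 was 6.77, and that of all genes tested was -0.93. With the median gene set to 0, 8 of the 9 were called higher, against 3.34% of all genes. The labels name no animals, so p-values measure the spread between lines, whose cells also differ in sort and plate. The clusters were made by the authors from these same reads, so the test speaks to whether a difference recurs from line to line and is no independent evidence for it.

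**Figure D1:**
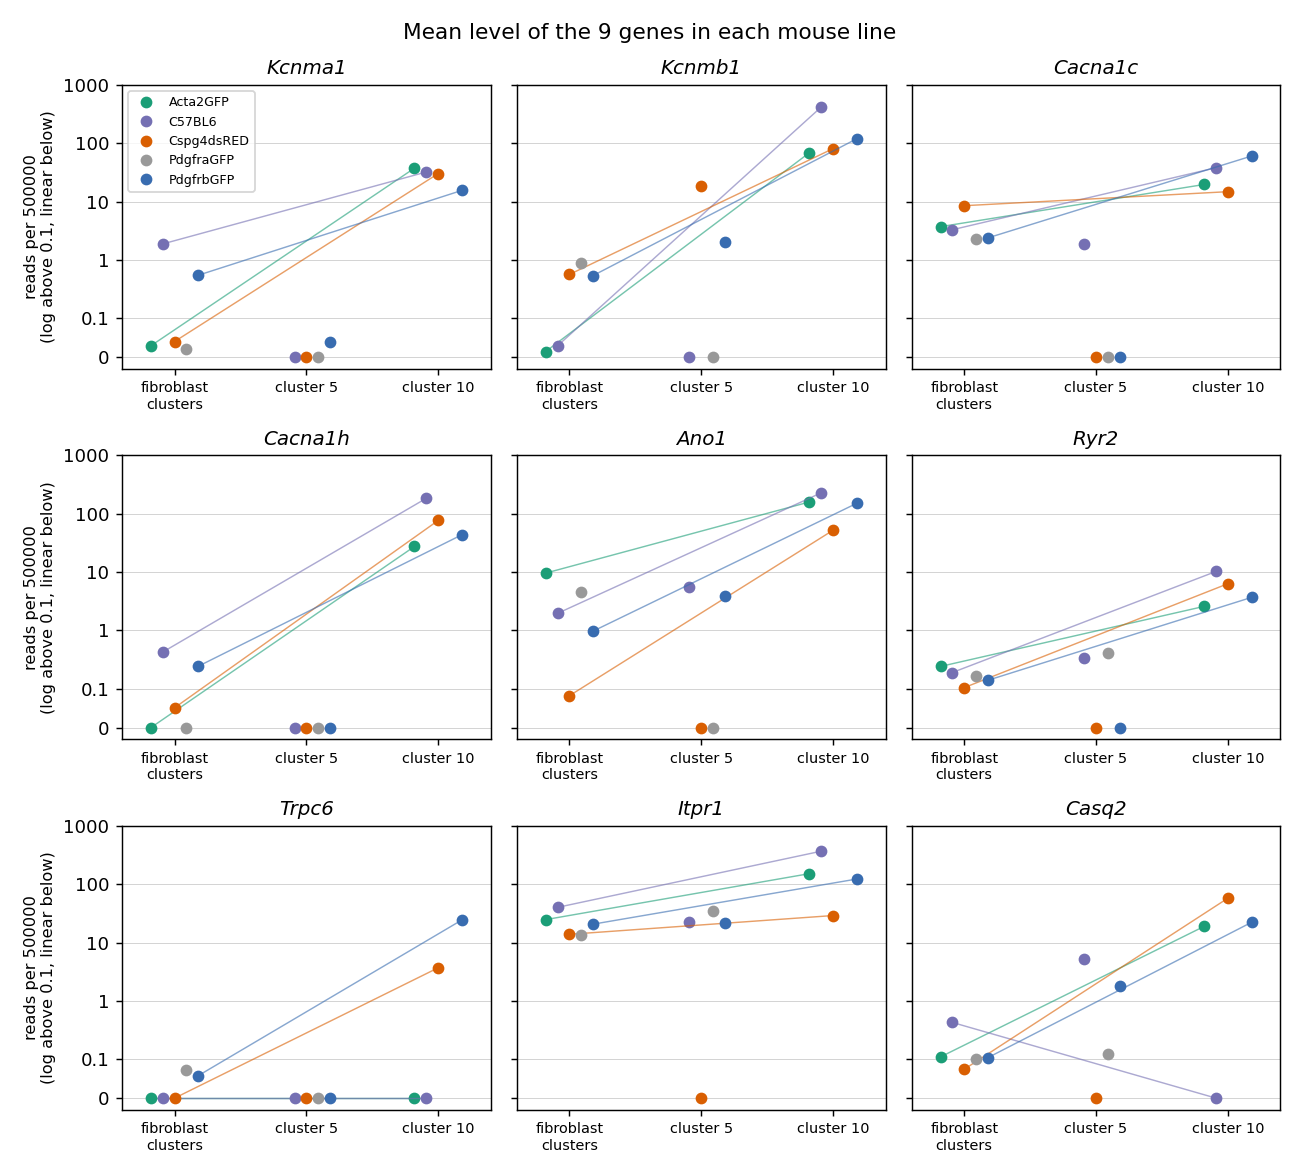
Level of each gene in each mouse line (y axis: reads per 500000 endogenous reads, on a log scale above 0.1 and linear below) in the fibroblast clusters, in cluster 5 alone, which is also part of the former, and in cluster 10. Points are lines with at least 3 cells of the group and connecting strokes join the same line; Kcnmb1, Cacna1h and Ano1 sat far higher in cluster 10 in all 4 lines, while Trpc6 was at 0 in 2 of them and Casq2 in 1.

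Among the genes for calcium entry, Cacna1c (ENSMUSG00000051331, GRCm38 chr6:118587240-119196418, minus strand) codes for the pore of the L-type calcium channel, the main voltage-gated entry route in smooth muscle. Its level in cluster 10 was 19.6 in Acta2GFP, 38.03 in C57BL6, 14.8 in Cspg4dsRED and 60.3 in PdgfrbGFP. In the fibroblast clusters the same lines had 3.72, 3.29, 8.50 and 2.39. The groups did not overlap, but 1 Cspg4dsRED fibroblast cell gave 91.9% of that line's level, and the fold was the second lowest of the 9 genes. A log2 change of 2.73 (SE 1.27) left Cacna1c uncalled (edgeR adjusted p = 0.209). With the median gene set to 0 the adjusted p was 0.0984. By plate and line Cacna1c was higher in cluster 10 in 6 of 7 groups.

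Cacna1h (ENSMUSG00000024112, chr17:25374285-25433783, minus strand) codes for a T-type calcium channel, which opens at more negative voltages than the L-type. In cluster 10 its level was 27.5 in Acta2GFP, 184.3 in C57BL6, 76.7 in Cspg4dsRED and 43.6 in PdgfrbGFP. In the fibroblast clusters it was 0, 0.426, 0.0511 and 0.243 in the same order. Cluster 10 was far above the fibroblast clusters in all 4 lines, and 1 cell gave all C57BL6 reads. The means were 83.04 ± 70.56 and 0.180 ± 0.194 (SD, n = 4 lines). In log2 this was a change of 9.53 with SE 1.46 (edgeR adjusted p = 0.000258), and Cacna1h was called in all 12 alternative settings. These 12 hold 11 different fits, because a minimum of 5 cells per line leaves out C57BL6 alone and equals the fit without that line. Its exons overlap Tpsg1 on the other strand, and Tpsg1 had 97 reads in all cells.

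Trpc6 (ENSMUSG00000031997, chr9:8544142-8680741, plus strand) codes for a cation channel opened by diacylglycerol below receptors coupled to phospholipase C. Its level in cluster 10 was 24.4 in PdgfrbGFP, 3.70 in Cspg4dsRED and 0 in Acta2GFP and C57BL6. The fibroblast clusters had 0.0579 in PdgfrbGFP and 0 in the other 3 lines. Trpc6 reads in cluster 10 thus came from 2 of 4 lines, in 5 Cspg4dsRED and 11 PdgfrbGFP cells. By plate and line Trpc6 was higher in cluster 10 in 5 of 7 groups and at 0 in both classes in the other 2. The log2 fold change was 9.25 (SE 2.64) with an edgeR adjusted p of 0.0453. Without C57BL6 the adjusted p was 0.0626, and without Cspg4dsRED or PdgfrbGFP the gene could not be tested. DESeq2 gave 0.0681. The promoter window of Trpc6 is shown because it holds a CArG box, the sequence that serum response factor binds in many smooth muscle genes. The window covers the 250 bases before and 50 from the RefSeq start (GRCm38.p6 chr9:8543892-8544191, plus strand) and the CArG box, upstream of the start, is in capitals.
Trpc6: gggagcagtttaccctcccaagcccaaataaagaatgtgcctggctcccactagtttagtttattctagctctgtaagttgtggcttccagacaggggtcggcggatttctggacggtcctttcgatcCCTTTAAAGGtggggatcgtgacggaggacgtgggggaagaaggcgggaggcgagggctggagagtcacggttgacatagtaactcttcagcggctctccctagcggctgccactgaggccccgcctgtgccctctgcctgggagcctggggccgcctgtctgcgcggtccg
Such a box was found in 1.63% of the 32851 RefSeq promoter windows of this length, searched on both strands. It was found in the window of no other member, among the 7 members matched to the table.

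Among the genes of the calcium store, Itpr1 (ENSMUSG00000030102, chr6:108213096-108551109, plus strand) codes for the type 1 inositol trisphosphate receptor, which releases stored calcium after receptor stimulation. It was the most widely read of the 9 genes. In cluster 10 its level was 151.9 in Acta2GFP, 368.6 in C57BL6, 29.1 in Cspg4dsRED and 122.9 in PdgfrbGFP. In the fibroblast clusters it was 24.8, 40.2, 13.9 and 20.7. Each line was higher in cluster 10, but the groups overlapped, because Cspg4dsRED in cluster 10 lay below C57BL6 in the fibroblast clusters. By plate and line, Itpr1 was higher in cluster 10 in 6 of 7 groups. On the Cspg4dsRED plate with 49 of the 65 cluster 10 cells it was lower there, at 12.46 against 13.23, and on the plate with the other 16 it was 79.95. The C57BL6 level came from 1 of 3 cells. The log2 fold change of 2.09 (SE 0.74) was the lowest of the 9 and did not pass (edgeR adjusted p = 0.0909). It passed with the median gene set to 0 (adjusted p = 0.0113). Itpr1 exons overlap Gm44101 and Gm44040 on the other strand, and Gm44040 had 446 reads in all cells.

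Ryr2 (ENSMUSG00000021313, chr13:11553102-12106945, minus strand) codes for a ryanodine receptor, the store channel opened by calcium itself. Its level in cluster 10 was 2.58 in Acta2GFP, 10.2 in C57BL6, 6.31 in Cspg4dsRED and 3.68 in PdgfrbGFP, and in the fibroblast clusters 0.241, 0.190, 0.105 and 0.140. The groups did not overlap, yet in each of 3 lines 1 cell held most of the level: it gave 88.6% of the Cspg4dsRED level, 86.4% of the PdgfrbGFP level and all C57BL6 reads. By plate and line Ryr2 was higher in cluster 10 in 6 of 7 groups, and on the PdgfrbGFP plate with 4 cluster 10 cells it was 0 there against 0.155 in fibroblast cells. A log2 change of 4.76 (SE 1.52) did not pass (edgeR adjusted p = 0.0622), and with the median gene set to 0 the adjusted p was 0.0401.

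Casq2 (ENSMUSG00000027861, chr3:102086415-102146514, plus strand) codes for the cardiac-type calsequestrin, which binds calcium inside the store. Its level in cluster 10 was 57.6 in Cspg4dsRED, 22.2 in PdgfrbGFP, 18.9 in Acta2GFP and 0 in C57BL6. The fibroblast clusters of the same lines had 0.0742, 0.107, 0.110 and 0.427. Cluster 10 was higher in 3 of 4 lines and in 6 of 7 groups of plate and line, and in Acta2GFP 1 of 12 cells gave 98.2% of the level. A log2 change of 7.21 (SE 2.24) did not pass (edgeR adjusted p = 0.0564). Without the C57BL6 line the adjusted p was 0.00513. Casq2 was called in 7 of 12 alternative settings and not in the others. The promoter window of Casq2 (GRCm38.p6 chr3:102086165-102086464, plus strand) is shown for a motif of MEF2 factors, which act in muscle genes. The match is in capitals and begins 69 bases before the RefSeq start.
Casq2: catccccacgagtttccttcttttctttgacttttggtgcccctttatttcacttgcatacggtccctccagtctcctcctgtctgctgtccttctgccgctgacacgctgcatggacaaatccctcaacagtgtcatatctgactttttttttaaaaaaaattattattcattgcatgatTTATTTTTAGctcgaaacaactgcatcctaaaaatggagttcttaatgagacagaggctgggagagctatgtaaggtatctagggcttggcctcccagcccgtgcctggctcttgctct
A MEF2 motif was found in 3.19% of all windows on either strand, and Casq2 was the only one of the 7 matched members with it.

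Ano1 (ENSMUSG00000031075, chr7:144588549-144751974, minus strand) codes for a calcium-activated chloride channel, whose current depolarises smooth muscle. Its level in cluster 10 was 159.1 in Acta2GFP, 228.1 in C57BL6, 52.1 in Cspg4dsRED and 150.9 in PdgfrbGFP. In the fibroblast clusters it was 9.61, 1.96, 0.0820 and 0.973. Of the Acta2GFP fibroblast level, 96.75% came from 9 cells of cluster 7. The lowest line of cluster 10 stood above the highest of the fibroblast clusters. The means were 147.5 ± 72.5 and 3.16 ± 4.37 (SD, n = 4 lines). Without those 9 cells, left out after their values were seen, the fibroblast mean was 0.839 ± 0.837. In log2 the change was 6.77 with SE 1.05 (edgeR adjusted p = 0.000286). Ano1 was called in all 12 alternative settings.

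Kcnma1 (ENSMUSG00000063142, chr14:23289431-24014491, minus strand) codes for the pore of the BK channel. Its level in cluster 10 was 37.4 in Acta2GFP, 32.2 in C57BL6, 30.2 in Cspg4dsRED and 15.6 in PdgfrbGFP, with the lowest SD relative to its mean of the 9 genes (28.8 ± 9.37, n = 4 lines). In the fibroblast clusters it was 0.0292, 1.88, 0.0402 and 0.547. The groups did not overlap. The log2 fold change was 6.64 (SE 1.92) with an edgeR adjusted p of 0.0447. The call was lost without Acta2GFP (0.146), Cspg4dsRED (0.189) or PdgfrbGFP (0.0947). Kcnma1 exons share 1016 bases with 4930519K11Rik on the other strand, which has no row in the count table, so its reads are not known.

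Kcnmb1 (ENSMUSG00000020155, chr11:33963013-33973641, plus strand) codes for the BK channel's β1 subunit, which raises its calcium sensitivity and is known as its smooth muscle partner. Its level in cluster 10 was 68.6 in Acta2GFP, 416.7 in C57BL6, 80.8 in Cspg4dsRED and 119.3 in PdgfrbGFP. The fibroblast clusters had 0.0144, 0.0291, 0.564 and 0.539. C57BL6 was far above the other 3 lines in cluster 10, and Kcnmb1 was the only member with a read in all 3 of its cells. Every line of cluster 10 stood above every line of the fibroblast clusters. Its log2 change was 9.59 with SE 1.32 (edgeR adjusted p = 7.13e-05), and Kcnmb1 was called in all 12 alternative settings.

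The promoter windows of the pore and of its partner are shown together because they differ in CpG content, with each CG in capitals (GRCm38.p6, Kcnma1 chr14:24004156-24004455, minus strand, and Kcnmb1 chr11:33962763-33963062, plus strand).
Kcnma1: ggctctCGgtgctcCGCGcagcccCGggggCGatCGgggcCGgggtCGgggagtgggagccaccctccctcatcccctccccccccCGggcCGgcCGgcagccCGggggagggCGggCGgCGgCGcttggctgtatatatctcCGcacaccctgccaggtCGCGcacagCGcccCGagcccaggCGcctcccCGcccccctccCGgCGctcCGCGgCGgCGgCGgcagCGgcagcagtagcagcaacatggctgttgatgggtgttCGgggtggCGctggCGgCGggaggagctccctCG
Kcnmb1: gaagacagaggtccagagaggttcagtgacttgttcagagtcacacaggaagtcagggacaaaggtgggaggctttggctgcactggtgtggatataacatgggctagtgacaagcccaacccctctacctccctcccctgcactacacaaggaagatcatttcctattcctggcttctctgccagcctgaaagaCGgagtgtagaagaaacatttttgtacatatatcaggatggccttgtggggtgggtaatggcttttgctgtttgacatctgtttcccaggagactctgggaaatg
The Kcnma1 window held 36 CpG, a count reached by 6.23% of windows, and 78% G and C. The Kcnmb1 window held 1 CpG and 49.7% G and C, and 14.1% of windows held as few. The median window held 7. Cacna1c had 3 windows with 3, 7 and 57 CpG, and Ano1 and Ryr2 had 18 each. CpG counts thus ranged widely among the members, and neither motif was found in these windows.

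**Figure D2:**
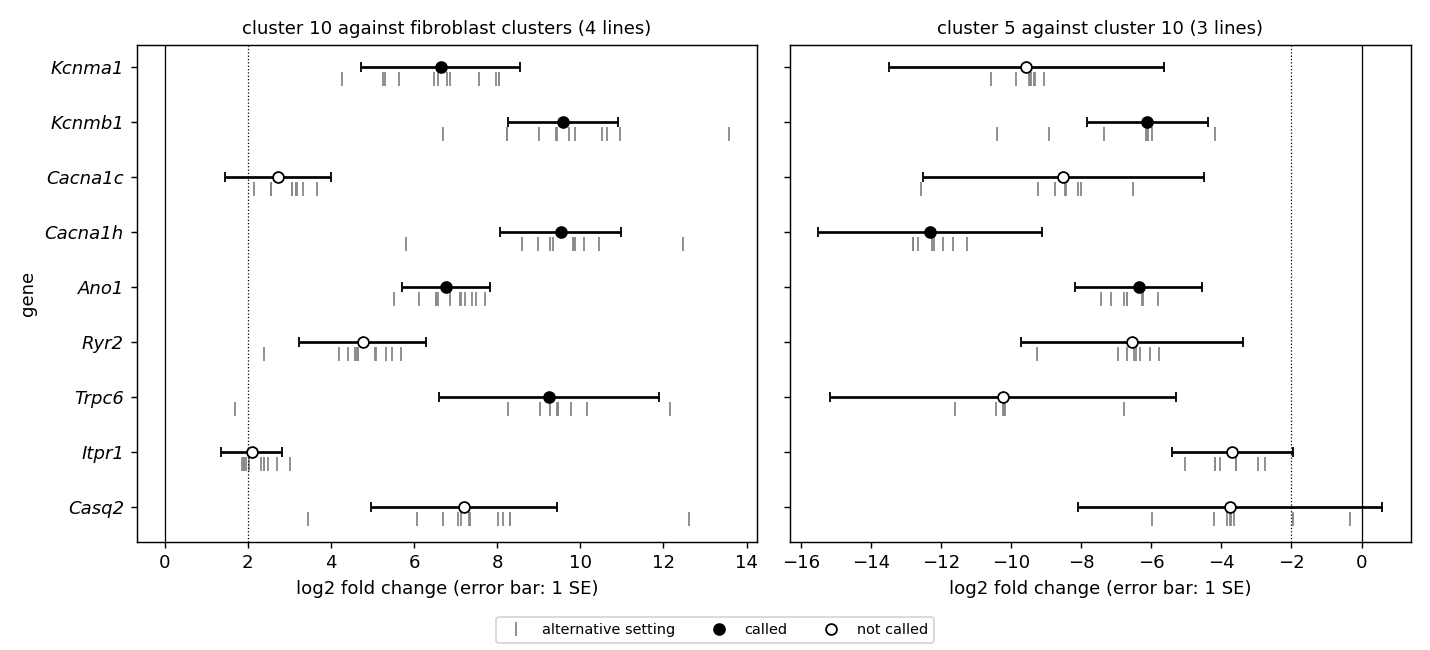
Fitted log2 fold change of each gene (x axis, error bars 1 SE) for cluster 10 against the fibroblast clusters over 4 lines and for cluster 5 against cluster 10 over 3 lines, from edgeR. Filled points were called, dotted strokes mark the fold threshold and grey ticks give the alternative settings; Kcnmb1, Cacna1h and Ano1 were called in both comparisons, and Cacna1h and Trpc6 had no read in cluster 5, so their fitted values there depend on the prior count.

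The PdgfraGFP line had no cell in cluster 10, and its fibroblast cells gave a further view of the low side. Its levels were 4.57 for Ano1, 2.28 for Cacna1c and 13.6 for Itpr1, inside or just below the range of the other lines. They were 0.879 for Kcnmb1, 0.163 for Ryr2, 0.0995 for Casq2, 0.0725 for Trpc6, 0.0210 for Kcnma1 and 0 for Cacna1h.

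Levels of different genes were compared only per kilobase of exon, as reads per 500000 per kb of all annotated exons joined. In cluster 10 the order was Kcnmb1 (40.9 ± 39.4), Ano1 (23.6 ± 11.6), Itpr1 (9.18 ± 7.84), Casq2 (9.02 ± 8.78), Cacna1h (8.51 ± 7.23), Kcnma1 (1.70 ± 0.552), Cacna1c (1.57 ± 0.975), Trpc6 (1.39 ± 2.31) and Ryr2 (0.198 ± 0.118; SD, n = 4 lines). Of neighbours in this order, Ano1 was above Itpr1 and Cacna1h above Kcnma1 in 4 of 4 lines, and the other pairs changed order in at least 1 line. The ranges of mean ± SD overlapped for every neighbouring pair. Without C57BL6, left out after its values were seen because it had 3 cells in cluster 10, Kcnmb1 was at 21.36 per kb, Itpr1 at 5.53 and Casq2 at 12.03, above Itpr1. The partner subunit exceeded the pore in every line, and the ratio of Kcnmb1 to Kcnma1 per kb was 7.42 in Acta2GFP, 10.8 in Cspg4dsRED, 31.1 in PdgfrbGFP and 52.5 in C57BL6. The T-type gene was above the L-type gene in every line, by a ratio of Cacna1h to Cacna1c of 1.57 in PdgfrbGFP, 3.04 in Acta2GFP, 10.5 in C57BL6 and 11.3 in Cspg4dsRED. Within PdgfrbGFP the ratio was 0.0315, 2.39 and 1.03 on the plates with 4, 21 and 20 cluster 10 cells, so the order turned on 1 plate and was near equal on another. The inositol trisphosphate receptor was above the ryanodine receptor, with Itpr1 to Ryr2 ratios of 7.24 in Cspg4dsRED to 92.5 in Acta2GFP. The Itpr1 to Ryr2 and Kcnmb1 to Kcnma1 ratios also moved with the plate. Between the Cspg4dsRED plates with 49 and 16 cluster 10 cells, Itpr1 went from 12.46 to 79.95 reads per 500000. Ryr2 went from 7.70 to 2.07, Kcnmb1 from 99.8 to 22.6 and Kcnma1 from 22.6 to 53.5. The exon length used ran from 2736 bases for Casq2 to 28790 for Ryr2.

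**Figure D3:**
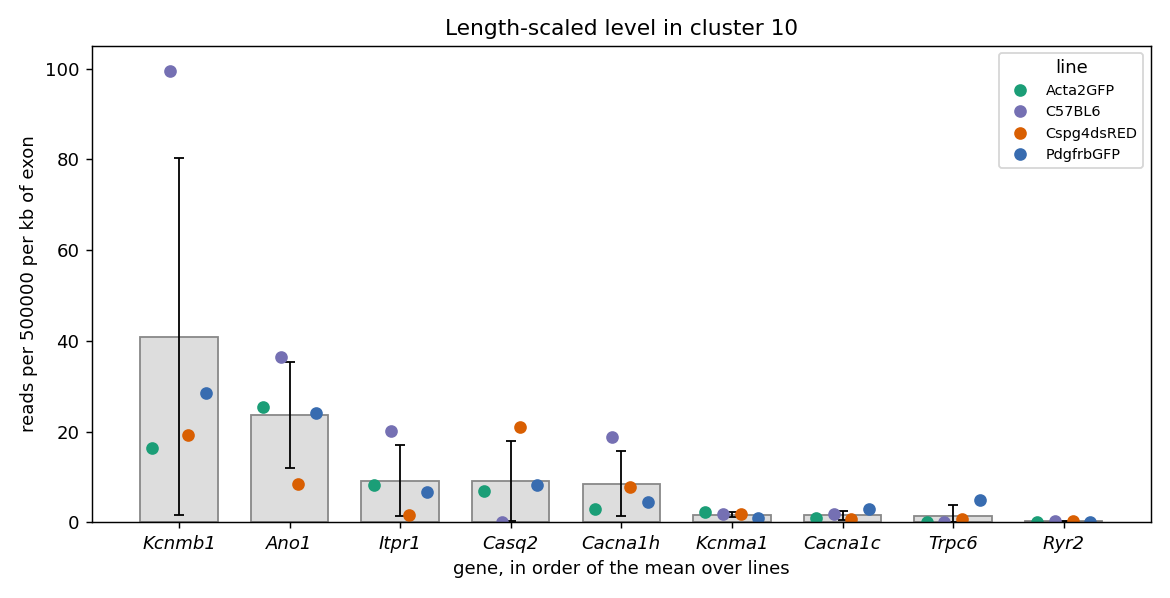
Length-scaled level of each gene in cluster 10 (y axis: reads per 500000 per kb of exon, from 0), in order of the mean over 4 lines. Bars are means, error bars 1 SD cut at 0 and points single lines; the C57BL6 point, from 3 cells, lies highest for Kcnmb1, Ano1, Itpr1, Cacna1h and Ryr2.

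By cell, after thinning to 50000 reads, the share of cluster 10 cells with a read, pooled over lines, was 44.8% for Itpr1 (95% exact Clopper-Pearson interval 35.9 to 53.95), 42.4% for Kcnmb1 (33.6 to 51.6), 37.6% for Ano1 (29.1 to 46.7) and 34.4% for Cacna1c (26.1 to 43.4). It was 24% for Cacna1h, 20% for Kcnma1, 12.8% for Casq2, 11.2% for Trpc6 and 9.60% for Ryr2. In the 1348 fibroblast cells so thinned the share was 29.8% for Itpr1 (27.4 to 32.3) and 3.93% or less for the other 8 genes, down to 0.297% for Casq2. Each gene's share was highest in cluster 10 among the 11 clusters, but for Kcnma1, Ryr2, Trpc6, Itpr1 and Casq2 the interval overlapped that of at least 1 other cluster, for Itpr1 that of cluster 6 (31.5 to 45.9) among others. These intervals are over cells pooled across lines. The pooled shares hid differences between lines. Itpr1 was read in 75.6% of PdgfrbGFP, 58.3% of Acta2GFP, 33.3% of C57BL6 and 21.5% of Cspg4dsRED cells of cluster 10, and in 33.1%, 30.8%, 31.6% and 20% of their fibroblast cells. Kcnmb1 ran from 21.5% in Cspg4dsRED to 64.4% in PdgfrbGFP and 3 of 3 C57BL6 cells, Ano1 from 27.7% in Cspg4dsRED to 66.7% in C57BL6, and Cacna1c from 20% in Cspg4dsRED to 55.6% in PdgfrbGFP. On 1 Cspg4dsRED plate Itpr1 was read, without thinning, in 18.4% of 49 cluster 10 cells and 35.2% of fibroblast cells. The order of genes by share therefore depends on the mix of lines. Without thinning, Itpr1 had a read in 52% of cluster 10 cells and 52.1% of fibroblast cells, and 7 of the 9 genes kept their highest share in cluster 10. Intervals cover counting error only, since reads without molecular identifiers are not independent molecules.

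**Figure D4:**
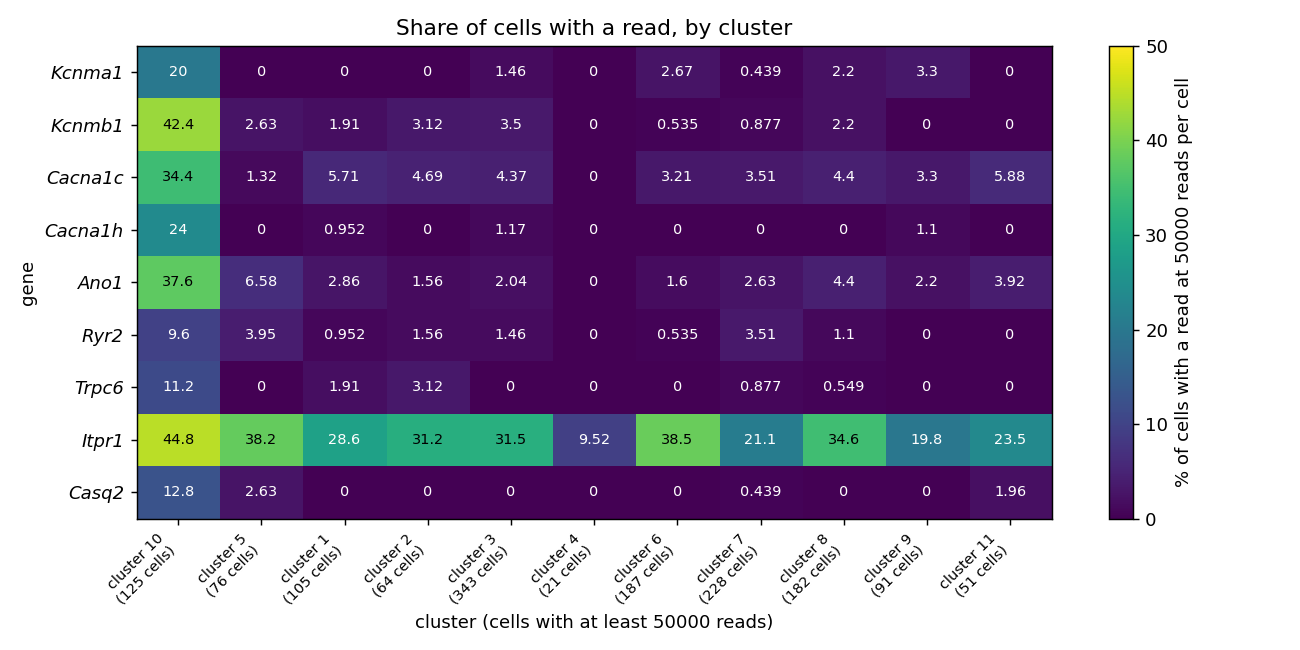
Percentage of cells with a read of each gene (rows) in each of the 11 clusters (columns) after thinning to 50000 reads per cell. Cluster 10 holds the highest value in every row, and outside cluster 10 the Itpr1 row runs from 9.52% to 38.5% while no other row exceeds 6.58%.

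After thinning, 56 cells of cluster 10 (44.8%) had reads of at least 3 of the 9 genes, and 2 of 1348 fibroblast cells did. The highest number was 7, in a C57BL6 cell, and no cell had all 9. By line, 75% of Acta2GFP, 73.3% of PdgfrbGFP, 33.3% of C57BL6 and 20% of Cspg4dsRED cells had at least 3, and the 15 cluster 10 cells with none were all Cspg4dsRED. Of the 25 cells with a Kcnma1 read, 14 (56%) also had Kcnmb1, which was 26.4% of the 53 cells with Kcnmb1, while Kcnmb1 was read in 42.4% of all cluster 10 cells. Whether members were read together more often than their single shares give was not tested. Rgs5, a pericyte marker, had a read in 59 cells of cluster 10. It was read in 31 of 47 cells with Ano1, 12 of 16 with Casq2 and 10 of 14 with Trpc6, and in 1 of 12 with Ryr2. For the other members it was 10 of 25 with Kcnma1, 25 of 53 with Kcnmb1, 21 of 43 with Cacna1c, 14 of 30 with Cacna1h and 25 of 56 with Itpr1. Kcnj8, also a pericyte marker, had a read in 26 cells of cluster 10. Its counts were 7 of 47 with Ano1, 1 of 16 with Casq2, 1 of 14 with Trpc6 and 2 of 12 with Ryr2. They were 8 of 25 with Kcnma1, 15 of 53 with Kcnmb1 and 9 of 43 with Cacna1c. With Cacna1h it was 7 of 30 and with Itpr1 14 of 56. Rgs5 and Kcnj8 thus did not go with the same members. Rgs5 itself had 95.7 reads per 500000 in PdgfrbGFP cells of 1 plate and 796 and 839 in those of the other plates, so the level of Rgs5 moved with the plate, and the part of this in the shares was not tested.

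The reads seen in fibroblast clusters differed with the place of a cell on its plate. Fibroblast cells were grouped by how many cluster 10 cells lay in the same row or column of their plate. For Kcnmb1, 1.34% of the 524 fibroblast cells without such a neighbour had a read, 9.63% of the 675 with 1 to 4 and 16.1% of those with 5 or more. The Kcnmb1 share was higher with a neighbour in 6 of 6 plates, by most on 2 PdgfrbGFP plates, with 29.5% against 1.67% and 23.3% against 0%, and on the other 4 it was at most 4.17% with a neighbour. The Ano1 shares were 6.11%, 12.2% and 17.4%, and higher with a neighbour in 6 of 6 plates too. The share for Casq2 was 0.191%, 2.37% and 5.16%, for Cacna1h 0.382%, 1.04% and 7.74%, for Kcnma1 2.29%, 3.11% and 8.39%, and for Trpc6 0.382%, 2.37% and 3.87%. These 4 did not differ alike within plates. The share was higher with a neighbour in 5 of 6 plates for Casq2, 4 for Cacna1h and Kcnma1 and 2 for Trpc6. Some plates not counted as higher had no read in either group. These were the 1 such plate for Casq2, 1 for Cacna1h and all but 1 for Trpc6. On 1 PdgfrbGFP plate and on the C57BL6 plate Kcnma1 was lower with a neighbour, at 0% against 0.837% and 3.64% against 6.82%. Cacna1c (10.1%, 8.59%, 9.03%), Ryr2 (10.1%, 5.93%, 8.39%) and Itpr1 (55.9%, 49.6%, 49.7%) did not follow this order. Among the 457 fibroblast cells without a neighbour in 3 lines, Kcnmb1 had 5 reads, Cacna1h 4 and Casq2 and Trpc6 none. In cluster 10 of these lines Casq2 had 1723 and Trpc6 617 reads, none of them in C57BL6. Only 8 of these fibroblast cells were Cspg4dsRED, so the lines are unevenly matched and no fold is given for them. Itpr1 still had 7849, Cacna1c 936, Ano1 629, Kcnma1 462 and Ryr2 58 reads there. With only these fibroblast cells, 3 genes were called, Kcnmb1, Cacna1h and Ano1. Kcnma1 (edgeR adjusted p = 0.776) and Trpc6 (0.36) were then not called. This fit held 3 lines and also lacked Acta2GFP, and without Acta2GFP alone Kcnma1 had already lost its call. The part of each change in the lost calls was not tested. The part that neighbouring wells play in the fibroblast reads was not tested further.

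**Figure D5:**
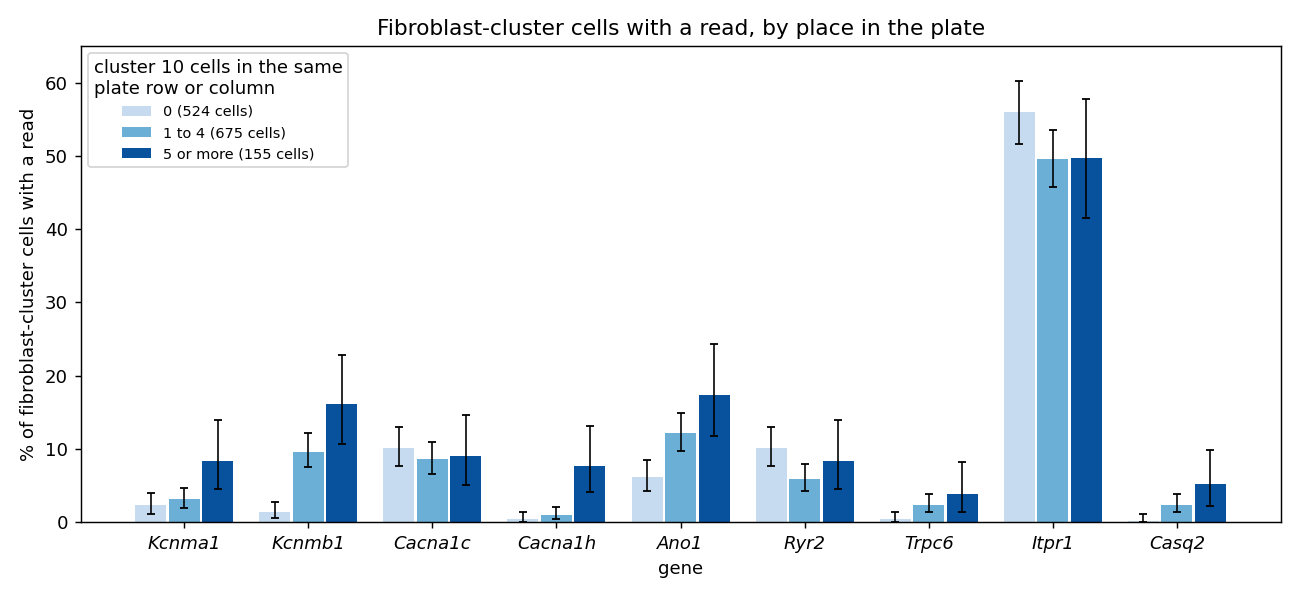
Percentage of fibroblast cells with a read of each gene (y axis, not thinned), by the number of cluster 10 cells in the same plate row or column. Bars are shares and error bars exact 95% intervals. Pooled over plates, the shares for Kcnmb1, Ano1, Casq2, Cacna1h, Kcnma1 and Trpc6 step up with the number of neighbours. Within plates the share was higher with a neighbour in 6 of 6 plates for Kcnmb1 and Ano1. For Trpc6 it was higher in 2 of 6, with no read in either group on most of the others.

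Cluster 5 was compared separately because, like cluster 10, it uses the smooth muscle actin gene Acta2, at 412.1 ± 135.9 reads per 500000 over 4 lines against 57.3 ± 25.2 over 5 lines in the other fibroblast clusters and 4792 ± 1187 over 4 lines in cluster 10. Cacna1h and Trpc6 had no read in the 76 cells of cluster 5, and Kcnma1 had 1 read. Cacna1c had 8 reads, all in 1 C57BL6 cell, and a level of 0 in Cspg4dsRED, PdgfraGFP and PdgfrbGFP. Itpr1 was read at 22.9 in C57BL6, 34.8 in PdgfraGFP, 21.8 in PdgfrbGFP and 0 in the 3 Cspg4dsRED cells. Kcnmb1 was 18.6 in Cspg4dsRED, where 1 of 3 cells held all reads, 1.99 in PdgfrbGFP and 0 in the other lines. Casq2 was 5.33 in C57BL6, 1.80 in PdgfrbGFP, 0.121 in PdgfraGFP and 0 in Cspg4dsRED, again mostly from single cells.

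Against the other fibroblast clusters, 7 of the 9 genes could be tested in cluster 5 and none was called by edgeR over 4 lines, against 0.762% of the 16145 genes tested. The lowest adjusted p were 0.235 for Kcnma1 and 0.236 for Cacna1c, which were lower in 4 of 4 lines and were the 2 members with an unadjusted p under 0.05. Kcnma1 had a read in 1 of these lines in cluster 5, and the other fibroblast clusters went down to 0.0246 by line. So near the floor, being lower in each line says little for Kcnma1. The Cacna1c log2 fold change was -5.76 (SE 2.05). DESeq2 called 2, Cacna1c lower (adjusted p = 0.00667) and Casq2 higher (0.0453), against 8.68% of all genes under that tool. The remaining members had log2 fold changes from -0.34 for Itpr1 to 4.85 for Casq2. The median over the 7 was -0.30, and that of all genes tested was -0.77.

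Against cluster 10, in the 3 lines that held both, 3 of the 9 genes were called lower in cluster 5, against 1.13% of the 13519 genes tested. Kcnmb1 was 0 to 18.6 by line in cluster 5 and 80.8 to 416.7 in cluster 10, and its log2 change was -6.11 with SE 1.73 (edgeR adjusted p = 0.0247). Ano1 was 0 to 5.48 against 52.1 to 228.1, with a change of -6.36 (SE 1.82, edgeR adjusted p = 0.0285). Cacna1h had 0 reads in cluster 5 and 1857 in cluster 10 of these lines (edgeR adjusted p = 0.00864). Cluster 5 held 3 Cspg4dsRED and 15 C57BL6 cells and cluster 10 held 65 and 3. The lines are thus unevenly matched and no fold is given for Cacna1h. Trpc6, with 0 and 617 reads, did not pass (edgeR adjusted p = 0.635). Cacna1c, Itpr1, Kcnma1 and Ryr2 were lower in 3 of 3 lines and Casq2 in 2, and none of these 5 passed. The calls rest on few lines. Without PdgfrbGFP none of the 9 passed, without C57BL6 only Ano1 (adjusted p = 0.0366), and without Cspg4dsRED only Kcnmb1 (0.00135), where 0.861%, 1.52% and 0.659% of all genes were called lower.

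Among the other 9 fibroblast clusters, each set against the rest without cluster 5, no member was called by edgeR in 41 tests, and 40 further pairs of gene and cluster had too few reads. The 8 tests with an unadjusted p under 0.05 were toward lower levels, in fits where the median gene itself stood at a log2 value of -1.52 to -0.16 and 6.11% to 23.3% of all genes had such a p. Over all genes, the share called was 0.0433% in cluster 1, 0.00647% in cluster 2 and 0.00608% in cluster 3. Cluster 4 had 0.746%, cluster 6 had 0.0246% and cluster 7 had 0.407%. For the last 3, clusters 8, 9 and 11, it was 0.0183%, 0.0454% and 0.0209%. DESeq2, which called 1.19% of all genes in cluster 3 and 4.9% in cluster 7, mostly lower, called 3 members, all lower: Ano1 in cluster 3 (log2 -3.54, adjusted p = 0.0209) and Cacna1c (-5.15, 0.000696) and Itpr1 (-1.81, 0.0216) in cluster 7. In edgeR Cacna1c was lower in cluster 7 in 5 of 5 lines (log2 -5.31, SE 1.49, adjusted p = 0.227), and so was Itpr1 (-1.93, SE 0.66, adjusted p = 0.323). The thinned share of cells with an Itpr1 read ran from 9.52% in cluster 4, with 2 of 21 cells, over 21.1% in cluster 7 to 38.2% in cluster 5 and 38.5% in cluster 6.

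The rest of the pathway was read from lists of genes with related roles. Of the calcium store genes, 5 of 22 tested were called higher in cluster 10 and 1 lower, where 2.17% of all genes tested were called higher and 4.02% lower. The higher ones were Pln, an inhibitor of the store pump (log2 10.36, SE 0.93, edgeR adjusted p = 4.28e-07), Hrc (9.61, SE 2.08), which binds calcium in the store, Casq1 (7.55, SE 2.02), the other calsequestrin, Mrvi1 (5.5, SE 0.91), a partner of the inositol trisphosphate receptor, and Atp2a3 (3.45, SE 0.91), a store pump. Itpr3, the type 3 inositol trisphosphate receptor, was lower (-6.99, SE 1.81, edgeR adjusted p = 0.0256), with 0.305 ± 0.436 reads per 500000 in cluster 10 and 25.1 ± 5.18 in the fibroblast clusters (n = 4 lines). With the median gene set to 0 its adjusted p was 0.0625. Of the same family, Itpr1 had a higher mean in cluster 10 but was not called (edgeR adjusted p = 0.0909). Itpr2 was not among the called genes either. Hrc and Casq1 were at 0 in 1 of 4 lines of cluster 10. Of 12 alternative settings, Pln and Mrvi1 were called in 12, Hrc in 9, Atp2a3 in 8, Casq1 in 7 and Itpr3 in 6.

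Of the TRP and mechanosensitive channel genes, 3 of 12 tested were higher in cluster 10, among them Trpc4 (log2 8.96, SE 2.34) and Trpv2 (5.26, SE 1.18), cation channels of the same superfamily as Trpc6. Of the voltage-gated calcium channel subunits 1 of 9 was, the auxiliary subunit gene Cacnb2 (5.22, SE 1.54, edgeR adjusted p = 0.0481). Of the voltage-gated potassium channel subunits 5 of 14 were higher, among them Kcna5 (9.79, SE 1.34), Kcnab1 (7.27, SE 1.75), Kcnh2 (5.56, SE 1.13) and Kcne4 (2.46, SE 0.64). Of the inward rectifier and tandem-pore potassium channels 2 of 6 were, Kcnj12 (10.83, SE 2.08) and Kcnk3 (8.20, SE 2.29). Among the 9 other chloride channel genes and the 4 calcium export genes tested, edgeR called none, and with the median gene set to 0 it called 1 export gene. Of the other BK partner subunit genes 1 of 7 had enough reads to be tested, and it was not called. Medians of the lists, by log2, were -0.39 for the store genes, -1.55 for the TRP genes, -0.27 for the calcium channel subunits, 1.87 and -4.13 for the voltage-gated and other potassium channels, 1.18 for export and -0.34 for chloride channels, beside -0.93 over all genes tested. Of 12 alternative settings, Cacnb2 was called in 6, Trpc4, Kcnk3 and Kcne4 in 7, Trpv2 and Kcnab1 in 9, Kcnj12 in 11 and Kcna5 and Kcnh2 in 12. Trpc4, Kcnk3 and Kcnab1 were at 0 in 1 of 4 lines of cluster 10. Against cluster 10, 4 of the 63 genes of these lists tested were called lower in cluster 5, Pln (-9.79), Atp2a3 (-9.46), Kcnh2 (-10.18) and Kcne4 (-8.04), beside 1.13% of all genes. Of 8 alternative settings, Pln and Kcne4 were called in 8, Atp2a3 in 7 and Kcnh2 in 5. Against the other fibroblast clusters 0 of 66 were called by edgeR, where 0.762% of all genes were, and nothing is read from this count.

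For each member the gene with the most similar pattern was sought over 43 groups of cluster and line with at least 3 cells, by Pearson's r of log2(level + 1). The groups share plates and lines, and r is given as a description. Cacna1h was most like Cox4i2 (r = 0.992), which was also the closest gene to Ryr2 (0.940). Trpc6 was closest to Myadml2 (0.983), Kcnmb1 to Olfr558 (0.942), Casq2 to Sgca (0.936), Kcnma1 to Aoc3 (0.909) and Ano1 to Slc4a8 (0.868). Itpr1 and Cacna1c had no gene so close, with 0.711 for Itpkb and 0.683 for Gm38366. Most of these values were lower without cluster 10. Without its 4 groups r was 0.267 for Cacna1h and Cox4i2, 0.102 for Ryr2 and Cox4i2, 0.008 for Trpc6 and Myadml2 and 0.559 for Kcnmb1 and Olfr558, and it stayed at 0.643 for Itpr1 and Itpkb. Between members, Cacna1h and Ryr2 had the highest r (0.938, and 0.021 without cluster 10), and the BK pore and partner had 0.759 (-0.121 without cluster 10).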

How the data were processed

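The authors deposited 1 table of raw read counts per gene for all cells, unnormalized. Per their methods, Smart-seq2 reads were trimmed with trim galore, aligned to GRCm38 with TopHat2 and counted with featureCounts; the annotation release and strand setting are not given in the sources used here. Cells, clusters and lines were taken from the labels, with 0 columns left without a sample. The table held 46517 gene rows and 92 spike-in rows, which were left out of library sizes, and 46005 gene IDs matched GENCODE M21, used for exon lengths. No pair of cells had identical counts (0 pairs), and each cell had 1 library.

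Levels are reads per 500000 endogenous reads. Sums of counts by line and cell class were tested over all genes with edgeR 4.0.16 (R 4.3.3; TMM, filterByExpr, quasi-likelihood F test, line as block, Benjamini-Hochberg). Calls needed an adjusted p below 0.05 and a log2 change of at least 2 in size, or 1 for the other fibroblast clusters. DESeq2 1.42.0 and limma 3.58.1 on log2(value + 1) were alternatives. SE was taken from the fold change and its F statistic. Shares used cells thinned to 50000 reads, which left out 6 cells. Scripts were tested on simulated data. Depth was 50276 to 1446059 reads per cell. Promoters came from RefSeq (GRCm38.p6; 7 of 9 members matched). Named list genes were those called, of which some are not reported here, and the lists and members were chosen with earlier results of these data known.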

Additional observations from a re-analysis of the deposited data

Results flagged for a closer look

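In groups of 4 or 5 lines, 8 of the 25 groups tested held a line that stood apart from the rest by Dixon's criterion, which chance meets in about 1 in 20 groups of normally distributed values. The levels are skewed and hold zeros, so that rate is not known to apply here. In cluster 10, Kcnmb1 stood at 417 reads per 500000 in C57BL6, from 3 cells, against 68.6 to 119.3 in the other lines. Trpc6 in cluster 10 was 24.4 in PdgfrbGFP against 0 to 3.70. In the fibroblast clusters, Kcnma1 was 1.88 in C57BL6 against 0.0210 to 0.547, and Casq2 was 0.427 in C57BL6 against 0.0742 to 0.110. Cacna1c in the fibroblast clusters was 8.50 in Cspg4dsRED against 2.28 to 3.72, and 1 cell gave 91.9% of it. In cluster 5, Kcnmb1 was 18.6 in Cspg4dsRED, from 1 of 3 cells, against 0 to 1.99. Cacna1c there was 1.86 in C57BL6, from 1 of 15 cells, and Kcnma1 was 0.0400 in PdgfrbGFP, a single read, while the other lines were at 0 for both genes.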

How the results depend on the processing

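Cell classes were paired within each mouse line, the block of the edgeR fits. No paired analysis was possible by replicate number because the labels number no replicates. Of the 9 genes, 5 were called higher in cluster 10. Under DESeq2, median-of-ratios scaling, sums per plate and line, and the median gene set to 0, 8 were called each time. Calls over all genes rose as well, from 2.17% higher to 5.19%, 3.04%, 3.41% and 3.34% in that order. With fibroblast cells free of cluster 10 neighbours 3 were called, beside 0.97% of all genes. That fit also lacked Acta2GFP and held 8 Cspg4dsRED fibroblast cells, so more than the neighbours changed. Leaving out 1 line at a time gave 3 to 5, beside 1.23% to 2.76%. Kcnmb1, Cacna1h and Ano1 were called in all 12 alternatives (11 different fits, since a minimum of 5 cells equals leaving out C57BL6), with adjusted p up to 0.00452, 0.00506 and 0.00914. For cluster 5 against the other fibroblast clusters, 0 were called, and 2 by DESeq2. For cluster 5 against cluster 10, 3 were called, 7 by DESeq2, 6 with sums per plate and line, 1 without the filter on low counts, and 0 to 1 when 1 line was left out. Of all genes 1.13% were called lower there, 3.92% by DESeq2, 2.62% with sums per plate and line and 0.486% without the filter. A minimum of 5 cells left 1 line there and gave no value. In the other clusters 0 were called, and 3 by DESeq2. Shares of cells with a read were highest in cluster 10 for 9 of 9 genes after thinning and for 7 without it. In cluster 5 against the other fibroblast clusters some uncalled log2 fold changes turned sign. Kcnmb1 went to -0.44 with at least 5 cells or without Cspg4dsRED and -1.58 with sums per plate and line. Ano1 went to 0.07 with DESeq2, 1.07 without PdgfraGFP and 0.47 with the median gene at 0. Ryr2 went to 0.01 with DESeq2 and 0.53 with the median gene at 0. Itpr1 went to 0.65 with at least 5 cells or without Cspg4dsRED, 0.43 with the median gene at 0 and 0.18 with sums per plate and line. With 1 line left out the values ran from -0.44 to 3.20 for Kcnmb1, -2.06 to 1.07 for Ano1 and -1.34 to 0.65 for Itpr1. The cause of these changes was not tested. Counts of 1 to 3 reads in cluster 5 and 3 C57BL6 cells in cluster 10 limit what these lines can show.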

Other observations

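Ano1 had a patch of high levels outside cluster 10. In cluster 7, 9 Acta2GFP cells had a mean of 120.8 reads per 500000, near the levels of cluster 10, with reads in 5 of the 9 cells. The highest of them had 453 and gave 41.7% of the mean. The same cluster had 0 to 0.259 in the other 4 lines, so the high Ano1 level of cluster 7 was seen in 1 line, which was prepared with elastase and sorted on 1 plate. These cells were picked out after their values were seen, and no test was made.

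Within PdgfrbGFP the cluster 10 levels also differed between plates. Ano1 was 105.5, 84.3 and 229.9 on the plates with 4, 21 and 20 such cells, Cacna1h was 1.07, 67.74 and 26.85, and Trpc6 was 49.5, 18.9 and 25.2. In Cspg4dsRED, Kcnmb1 was 99.8 on the plate with 49 such cells and 22.6 on that with 16, while Kcnma1 was 22.6 and 53.5 and Itpr1 12.5 and 79.95. In PdgfrbGFP, Kcnma1 was 26.5, 11.2 and 17.97 and Kcnmb1 211.1, 108.4 and 112.3 on its 3 plates, so both were highest on the plate with 4 cells.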
